A study of Mus musculus with 15 samples.

Results

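The regions described here carried a peak of acetylated histone H3 lysine 27 (H3K27ac) in mouse embryonic stem cells (ESCs) and in D-EPSCs, and none in L-EPSCs. They were chosen by H3K27ac peaks alone: overlapping or touching peaks of the 3 cell states were joined into union regions, and those with peaks of ESCs and D-EPSCs but no L-EPSC peak were kept. The rule kept 6943 of 70360 union regions, which was 9.87% of them. They are called ESC/D-EPSC regions below. The H3K27ac peaks chose the regions, so their H3K27ac values are a description and support nothing further.

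Extended or expanded potential stem cells (EPSCs) are pluripotent cells kept in media meant to broaden the range of tissues they can form, and the study compared 2 such media with an ESC medium. ChIP-seq of H3K27ac and of mono-methylated histone H3 lysine 4 (H3K4me1) covered 15 samples, with each mark measured in 2 samples of each state beside 1 input. The values used were 6 lists of broad peaks, 1 per state and mark, so differences could be neither checked against replicates nor tested. The H3K27ac lists held 64342 (ESC), 32782 (D-EPSC) and 26966 (L-EPSC) peaks over 107, 44.4 and 34.3 Mb, and the H3K4me1 lists held 107222, 102751 and 105306 peaks. Depth is unknown from such lists, and a missing peak does not show that acetylation was absent.

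All cells were J1 cells of the 129SV strain, 1 line, and the D-EPSCs and L-EPSCs were converted from these ESCs. The ESC medium was DMEM with serum, LIF and the inhibitors CHIR99021 (of GSK3) and PD0325901 (of MEK), and cells grew on inactivated mouse embryonic fibroblasts or on gelatin. D-EPSCs were kept in N2B27 medium with knockout serum replacement (KSR), LIF, CHIR99021, dimethindene maleate and minocycline hydrochloride. L-EPSCs were kept in DMEM/F12 with KSR, LIF, CHIR99021, PD0325901, A-419259 (of Src family kinases), XAV939 (of tankyrase), JNK inhibitor VIII and SB203580 (of p38). LIF and CHIR99021 were thus in all 3 media, PD0325901 was in the ESC and L-EPSC media, and the Src, tankyrase, JNK and p38 inhibitors were in the L-EPSC medium alone. By the study's methods, both EPSCs were kept without feeder cells for several passages before ChIP-seq. No such step is stated for the ESCs. Of the defining markers, the 3 pluripotency genes Pou5f1, Nanog and Sox2 were acetylated within 1 kb of the start site in all 3 lists. None of 4 trophoblast markers, 3 primitive endoderm markers and 7 fibroblast markers had an H3K27ac peak there in any list. Some genes of the longer lists read below did have one. In the ESC, D-EPSC and L-EPSC lists these were 4, 1 and 0 of 19 trophoblast genes and 4, 2 and 4 of 16 primitive endoderm genes. Of 14 fibroblast genes they were 1, 1 and 0.

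H3K27ac is written by the acetyltransferases EP300 and CREBBP and marks active promoters and enhancers. H3K4me1 is written by KMT2C and KMT2D over enhancers, active or not, and on the flanks of promoters, where the start site itself usually carries the tri-methylated form instead. An enhancer can keep H3K4me1 after it loses H3K27ac, and is then often called primed. Both marks are therefore read together when the state of a regulatory region is described.

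The sequences of 6 ESC/D-EPSC regions are given first, because some of the gene groups and motifs described further on are met in them. Each line holds the central 300 bases of a region on the plus strand of mm9 (NCBIM37), 5′ to 3′, and capitals mark every match to 1 of 15 short motifs that were searched on both strands. The first 3 are distal regions, at Btrc (a substrate receptor for β-catenin degradation), Kat6b (a histone acetyltransferase) and Slc2a3 (the glucose transporter GLUT3). The last 3 lie within 1 kb of the start sites of Jak1 (a kinase of the LIF receptor), Dppa3 (a maternal and naive pluripotency factor) and Lin28a (an RNA-binding protein that blocks let-7 maturation).
Btrc, chr19:45427453-45427752: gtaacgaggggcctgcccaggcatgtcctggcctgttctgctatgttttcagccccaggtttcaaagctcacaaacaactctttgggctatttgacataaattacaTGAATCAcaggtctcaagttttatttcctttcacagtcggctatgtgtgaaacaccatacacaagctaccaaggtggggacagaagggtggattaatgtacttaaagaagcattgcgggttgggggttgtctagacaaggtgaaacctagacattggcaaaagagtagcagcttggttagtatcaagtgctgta
Kat6b, chr14:22405652-22405951: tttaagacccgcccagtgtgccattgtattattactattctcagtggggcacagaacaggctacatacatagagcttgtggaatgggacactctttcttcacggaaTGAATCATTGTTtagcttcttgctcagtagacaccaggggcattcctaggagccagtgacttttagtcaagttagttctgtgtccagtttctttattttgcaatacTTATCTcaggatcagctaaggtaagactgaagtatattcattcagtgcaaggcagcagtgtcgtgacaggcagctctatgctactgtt
Slc2a3, chr6:122760818-122761117: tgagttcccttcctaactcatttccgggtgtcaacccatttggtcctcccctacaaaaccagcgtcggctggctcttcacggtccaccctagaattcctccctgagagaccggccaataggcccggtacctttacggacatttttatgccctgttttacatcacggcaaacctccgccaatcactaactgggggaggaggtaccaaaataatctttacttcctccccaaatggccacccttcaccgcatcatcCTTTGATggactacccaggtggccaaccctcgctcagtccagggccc
Jak1, chr4:100937687-100937986: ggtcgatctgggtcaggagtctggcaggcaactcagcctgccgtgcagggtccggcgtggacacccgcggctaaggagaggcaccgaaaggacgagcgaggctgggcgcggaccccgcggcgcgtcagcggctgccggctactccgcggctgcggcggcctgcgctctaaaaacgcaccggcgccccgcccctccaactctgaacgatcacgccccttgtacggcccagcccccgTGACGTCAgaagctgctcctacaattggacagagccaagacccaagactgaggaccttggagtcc
Dppa3, chr6:122577499-122577798: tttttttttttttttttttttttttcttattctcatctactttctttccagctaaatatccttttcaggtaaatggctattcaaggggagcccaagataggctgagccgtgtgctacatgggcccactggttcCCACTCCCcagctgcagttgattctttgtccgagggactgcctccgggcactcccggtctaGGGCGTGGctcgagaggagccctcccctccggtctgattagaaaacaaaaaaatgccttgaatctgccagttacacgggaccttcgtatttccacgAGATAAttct
Lin28a, chr4:133573667-133573966: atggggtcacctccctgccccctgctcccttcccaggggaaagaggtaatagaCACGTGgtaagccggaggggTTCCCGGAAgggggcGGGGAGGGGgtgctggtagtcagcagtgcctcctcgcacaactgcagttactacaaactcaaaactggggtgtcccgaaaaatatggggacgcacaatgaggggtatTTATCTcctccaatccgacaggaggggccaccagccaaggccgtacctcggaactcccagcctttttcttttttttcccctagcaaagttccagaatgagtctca
The Btrc window held the AP-1 site TGANTCA at base 107. In the Kat6b window an AP-1 site at base 107 and a SOX site (CATTGTT) at base 112 shared bases, and a GATA site (AGATAA on the minus strand) began at base 213. The Slc2a3 window held the TCF/LEF site CTTTGAT at base 254. The Jak1 window held the CRE site TGACGTCA at base 236, and the Dppa3 window held KLF sites (GGGNGTGG) at bases 134 and 195 and a GATA site at base 291. In the Lin28a window an E-box (CACGTG) stood at base 54, a STAT site (TTCCNGGAA) at base 74, a ZFP281/SP site (CCCCTCCCC on the minus strand) at base 89 and a GATA site at base 196. A match is a stretch of letters and does not show that a factor was bound.

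The ESC/D-EPSC regions were mid-sized, with a median width of 1393 bp (quartiles 892 and 2271 bp, range 218 to 28393 bp). Regions of all 3 states had a median width of 2806 bp, ESC-only regions 649 bp, and the mirror class of ESC and L-EPSC without D-EPSC (2860 regions, called ESC/L-EPSC regions) 1470 bp. Within the ESC/D-EPSC regions, ESC peaks covered a median of 1212 bp and D-EPSC peaks 614 bp. ESC peaks were the wider in 5340 regions (76.9%), D-EPSC peaks in 1599, and the median ratio was 1.87. In 51.7% of the regions the D-EPSC peak lay wholly inside ESC peak bases, and in 9.02% the reverse held. Most regions (6388, or 92.0%) were made of 1 ESC peak and 1 D-EPSC peak, and 2 regions were made of peaks that only touched. Together they spanned 12.7 Mb, of which 4.40 Mb (34.6%) was covered in both states. The D-EPSC peaks were thus mostly the narrower, and about as many lay wholly inside ESC peak bases as did not.

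The absence of an L-EPSC peak went with how little the other lists shared. Of 21915 regions with ESC and D-EPSC peaks, 31.7% had no L-EPSC peak, while 16.0% of the 17832 regions with ESC and L-EPSC peaks had no D-EPSC peak. Among ESC and D-EPSC regions with under 500 bp covered by both, 55.9% had no L-EPSC peak (3641 of 6513). The share was 38.9% from 500 up to 1000 bp, 17.9% up to 2000 bp, 6.19% up to 5000 bp and 0.244% above that, where 3 of 1229 regions lacked one. The size of the set also changed when the lists were shortened, which changed list length and peak width together. With only the widest peaks of each list, equal in number, 2975 regions remained under the rule and the share was 21.3%, against 16.0% for the mirror class. With the widest peaks up to equal covered bases, which kept the 3725 ESC peaks of at least 5131 bp, 92 regions met the rule and the share was 3.23%, below the 16.3% of the mirror class, so the order of the classes turned. How much of the set reflects the peak calls rather than the cells was not tested.

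**Figure D1:**
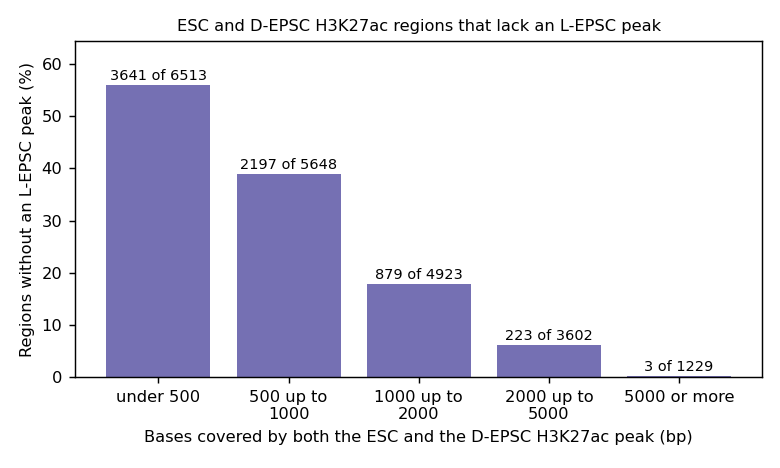
Share (%) of union regions with ESC and D-EPSC H3K27ac peaks that had no L-EPSC peak, by the number of bases (bp) covered by both peaks; the numbers above the bars are regions without an L-EPSC peak of all regions in the bin. The share goes from 55.9% under 500 bp to 0.244% at 5000 bp or more.

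The regions were seldom edges of an L-EPSC peak. The nearest L-EPSC H3K27ac peak lay a median of 14.8 kb away (quartiles 4.75 and 43.6 kb). It was within 1 kb for 332 regions (4.78%), within 10 kb for 2839 (40.9%) and farther than 100 kb for 815. Of ESC-only regions, 4.73% had an L-EPSC peak within 1 kb, much the same share, and 49.6% had one within 10 kb. Of the mirror class, 8.88% had a D-EPSC peak within 1 kb and 59.8% within 10 kb. Just inside the rule, the smallest gap to an L-EPSC peak was 7 bp, and 10 regions had one within 100 bp. Just outside it, 16 regions of all 3 states held at most 100 bp of L-EPSC peak, the smallest 2 bp, where the median over all 3 states was 1087 bp. By position, the rule thus cut through few borderline cases. L-EPSC signal that narrowly missed a peak call leaves no trace in such lists, so borderline calls could not be counted. The plot of distances shows the ESC/D-EPSC regions farther from a peak of the missing state than either other class at every distance plotted from 5 kb to 100 kb, although the L-EPSC list, being the shortest, also leaves the widest gaps.

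**Figure D2:**
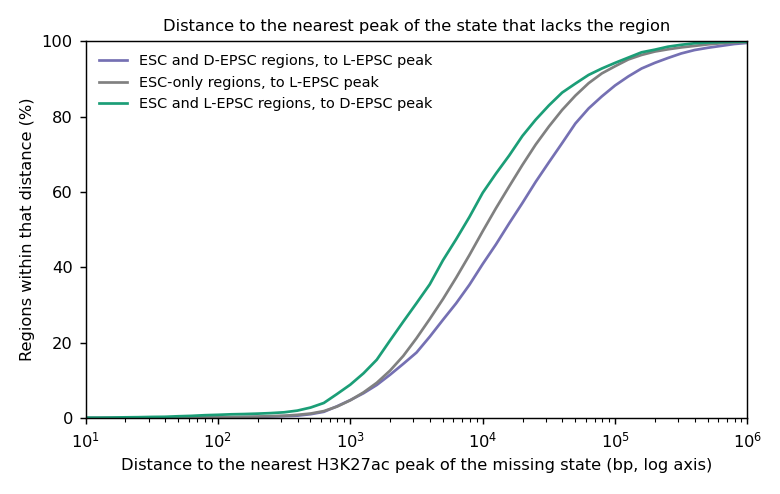
Cumulative share (%) of regions against the distance to the nearest H3K27ac peak of the state that lacks the region (bp, log axis), for ESC/D-EPSC regions to L-EPSC peaks, ESC-only regions to L-EPSC peaks and ESC/L-EPSC regions to D-EPSC peaks. At 10 kb the 3 curves stand at 40.9%, 49.6% and 59.8%.

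H3K4me1, which the rule did not use, was still listed in L-EPSCs over most of these regions. An H3K4me1 peak of the ESC list overlapped 81.8% of them (5678), one of the D-EPSC list 84.3% (5853) and one of the L-EPSC list 78.8% (5472). All 3 states had one at 5081 regions (73.2%), and only 408 (5.88%) had it in ESCs and D-EPSCs but not in L-EPSCs, the pattern that followed the acetylation. The share of region bases covered was lower in L-EPSCs, at 59.0%, than in ESCs (76.2%) or D-EPSCs (71.5%). In regions of all 3 states, by contrast, H3K4me1 covered 73.8% of the bases in L-EPSCs and overlapped 94.6% of the regions. In ESC-only regions it overlapped 60.9% in L-EPSCs and 64.2% in D-EPSCs, so that over all widths the ESC/D-EPSC regions stood between both classes. Width moved with these values. Between 1000 and 2000 bp, L-EPSC H3K4me1 overlapped 78.6% of the ESC/D-EPSC regions, 92.5% of the regions of all 3 states and 73.9% of the ESC-only regions. Under 500 bp the 3 shares were 54.8%, 48.9% and 48.7%, so the ESC/D-EPSC regions were the highest there. The L-EPSC list was also not the lowest of the 3 in narrow ESC/D-EPSC regions: under 500 bp the ESC list overlapped 49.4% and the D-EPSC list 60.3%, and from 500 up to 1000 bp the ESC list overlapped 65.4% and the L-EPSC list 65.9%.

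In the mirror class the marks stood the other way round. H3K4me1 overlapped 93.3% of ESC/L-EPSC regions in L-EPSCs and 85.3% in D-EPSCs, and covered 78.3% and 65.4% of their bases. At the centres of the 6057 distal ESC/D-EPSC regions (no protein-coding start site within 1 kb), 76.2% lay inside an ESC, 76.4% inside a D-EPSC and 65.2% inside an L-EPSC H3K4me1 peak. At the centres of distal ESC/L-EPSC regions the values were 82.4%, 72.5% and 86.0%. At distal centres the state that lacked the H3K27ac peak was thus the lowest of the 3 in H3K4me1 in both classes. It was still well above its own level 5 kb upstream, which in L-EPSCs was 20.7% for the ESC/D-EPSC regions. The whole L-EPSC H3K4me1 list also covered fewer bases (173 Mb) than the D-EPSC (187 Mb) and ESC (221 Mb) lists, and what part that had in the lower coverage was not tested.

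**Figure D3:**
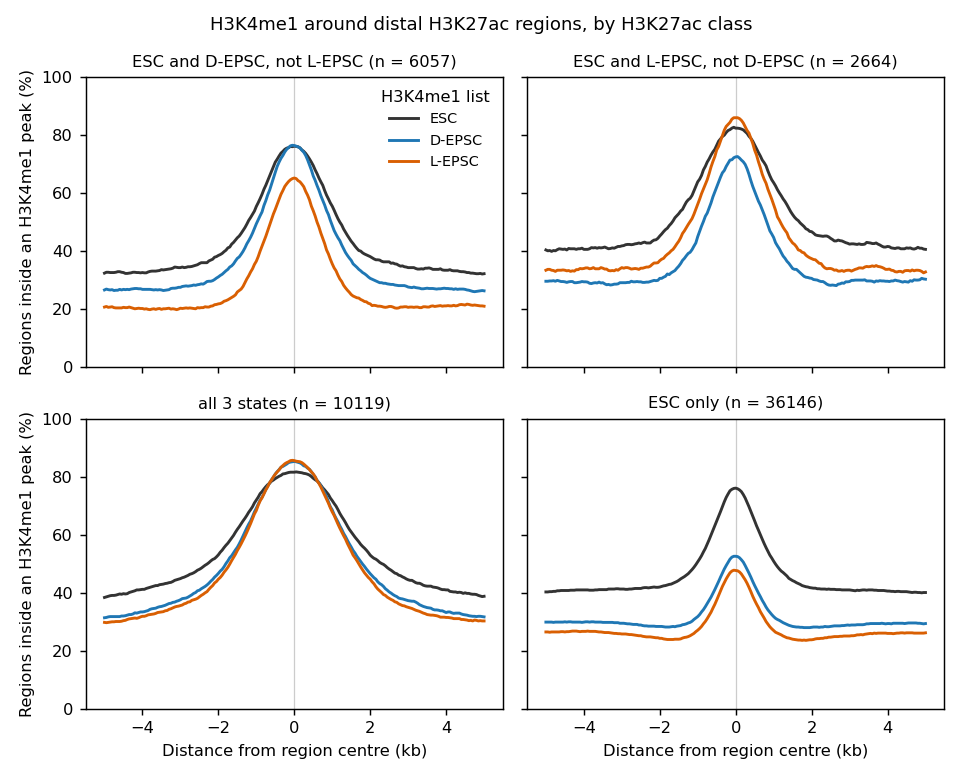
Share (%) of distal H3K27ac regions inside an H3K4me1 peak against the distance from the region centre (kb), in 4 classes of H3K27ac region; lines are the ESC, D-EPSC and L-EPSC H3K4me1 lists. For regions acetylated in ESC and D-EPSC, not L-EPSC, the centre stands at 76.2%, 76.4% and 65.2%; for regions of all 3 states it stands at 81.6%, 85.3% and 85.6%.

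A further 802 ESC/D-EPSC regions (11.6%) had no H3K4me1 peak in any state. This was the case for 3.95% of regions of all 3 states, 4.72% of ESC/L-EPSC regions and 14.5% of ESC-only regions. These 802 regions were narrow (median 868 bp), low in GC (44.5%) and far from the nearest L-EPSC H3K27ac peak (median 37.3 kb), and 9.73% of them lay at a start site. Over all ESC/D-EPSC regions, these 802 included, H3K4me1 overlap also went with size and surroundings. Of the 1735 regions with the most bases covered by both peaks, the L-EPSC list overlapped 88.3%, against 74.9% of the 1736 with the fewest. Of the 815 regions farther than 100 kb from an L-EPSC acetylation peak, 65.0% (ESC), 69.8% (D-EPSC) and 69.3% (L-EPSC) overlapped H3K4me1.

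At start sites the pattern of H3K4me1 differed from that of distal regions. The 886 ESC/D-EPSC regions within 1 kb of a protein-coding start site overlapped H3K4me1 in 68.1% (ESC list), 84.7% (D-EPSC list) and 89.4% (L-EPSC list) of cases. At 140 of them (15.8%) both EPSC lists held H3K4me1 and the ESC list did not, which was the case at 1.83% of distal regions. Around the 919 start sites with such a region and no L-EPSC H3K27ac peak, H3K4me1 dipped at the first base, to 12.0% of sites (ESC), 26.4% (D-EPSC) and 34.7% (L-EPSC). At 1 kb downstream it stood at 53.4%, 81.1% and 82.8%, and at 2 kb downstream at 70.3%, 63.7% and 46.6%. The gap between the H3K4me1 flanks was therefore widest in ESCs and narrowest in L-EPSCs. The 5404 start sites acetylated in all 3 states had the same order at the first base, at 5.83%, 15.9% and 23.9%, so the order was not restricted to the start sites without L-EPSC acetylation.

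**Figure D4:**
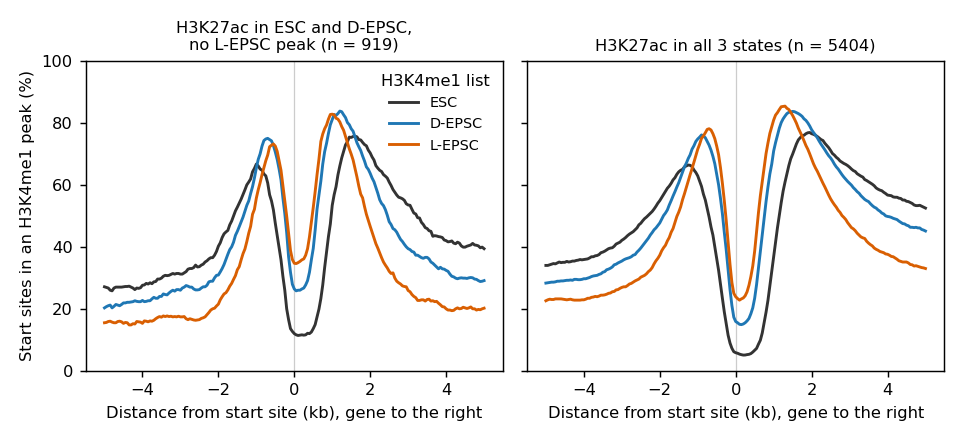
Share (%) of protein-coding start sites inside an H3K4me1 peak against distance from the start site (kb, negative upstream), for start sites with an ESC/D-EPSC region and no L-EPSC H3K27ac peak and for start sites acetylated in all 3 states; lines are the 3 H3K4me1 lists. At the first base the left panel stands at 12.0% (ESC), 26.4% (D-EPSC) and 34.7% (L-EPSC).

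The regions lay mostly away from promoters. Of the 6943, 886 (12.8%) were at a start site, 1060 (15.3%) overlapped an exon elsewhere, 2545 (36.7%) were intronic and 2452 (35.3%) were intergenic. Regions of all 3 states were at a start site in 32.4% and intronic in 19.4%. Read the other way, 15.4% of ESC and D-EPSC regions at start sites had no L-EPSC peak, against 46.7% of the intronic, 31.3% of the exonic and 33.4% of the intergenic ones. Acetylation at promoters was thus shared by the 3 lists more often than acetylation in introns. Distal ESC/D-EPSC regions lay a median of 28.0 kb from the nearest start site, had a median GC content of 45.6% and held 0.204 of the CpG dinucleotides expected from their base composition. Those at start sites had 55.0% GC and a ratio of 0.600.

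The share of ESC and D-EPSC regions without an L-EPSC peak was 29.5% to 35.7% on 18 autosomes. It was lowest on chromosome 8, at 25.1% (351 of 1400 regions), and highest on chromosome X, at 39.8% (103 of 259). The mirror share on chromosome X was 9.30%, the lowest of the 20 chromosomes. Leaving out chromosome X gave 6840 regions and a share of 31.6%.

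ESC/D-EPSC regions sometimes followed each other. For 940 of the 6943 (13.5%) the next union region along the chromosome was of the same kind, where such regions were 9.87% of all union regions, and 125 runs of 3 or more in a row were found. The longest was 6 in a row over 19.8 kb of Fat1, which encodes a protocadherin, at chr8:46069984-46089830. A run of 4 lay over Optn, the autophagy receptor optineurin, at chr2:4962625-5003438, and runs of 5 lay at Kcnt2, at Smyd3, at Naf1 and at Gorasp2 with Tlk1.

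The 15 motifs were counted in the central 300 bases. AP-1 sites, bound by JUN and FOS proteins downstream of JNK and other kinases, were in 832 of 6057 distal ESC/D-EPSC regions (13.7%), against 10.7% of all distal union regions. Distal regions of all 3 states held them in 11.5%, ESC/L-EPSC regions in 10.6% and ESC-only regions in 9.64%, while D-EPSC-only regions held them in 13.8% and regions of D-EPSC and L-EPSC without ESC in 13.2%. GATA sites were in 16.6% of the distal ESC/D-EPSC regions against 14.5% of all distal regions. ESRRB sites (AAGGTCA), bound by a naive pluripotency factor, were in 6.70% against 7.86%, and in 9.05% of ESC/L-EPSC regions. KLF sites were in 10.8% against 12.1%. Distal D-EPSC-only regions went the same way, with GATA sites in 16.9%, ESRRB sites in 5.99% and KLF sites in 8.84%. TCF/LEF sites, which read out Wnt signalling, were in 4.77% against 4.60%, and TEAD sites (ACATTCC) in 4.64% against 4.47%. The differences were thus of a few percentage points in either direction, and none was tested.

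Width and base composition bore on these motif shares. AP-1 sites were in 17.0% of distal ESC/D-EPSC regions under 1000 bp, 14.6% from there to 2000 bp and 9.97% from there to 5000 bp. Regions of all 3 states held them in 12.2%, 16.3% and 10.7% of those widths, so the AP-1 share of the ESC/D-EPSC regions was above theirs only among the narrow ones. It was above ESC-only regions (9.74%, 9.82% and 8.41%) and ESC/L-EPSC regions (11.2%, 12.6% and 8.35%) in all 3 bins. In windows of 35 to 40% GC the AP-1 share was 15.3% in ESC/D-EPSC and 14.0% in ESC/L-EPSC regions, and at 45 to 50% GC it was 14.0% and 14.4%. The gap was widest at 40 to 45% GC, where 277 of 1542 ESC/D-EPSC and 34 of 465 ESC/L-EPSC regions held a site, so the difference from the mirror class was not seen at every base composition. The ESRRB share was below that of ESC/L-EPSC regions in all 3 width bins (6.15% against 7.98%, 7.74% against 10.1% and 5.69% against 9.23%). At 35 to 40% GC it was 6.85% against 6.15%, and in the 3 bins above that it was again the lower. The GATA share was above that of these other 3 classes in each width bin, with 16.5%, 16.3% and 17.1%. D-EPSC-only regions were not split by width. At 35 to 40% GC, however, the GATA share of the ESC/D-EPSC regions was the lowest of the 4 classes (21.2%, against 25.1% in ESC/L-EPSC regions). At 50 to 55% GC it was 10.9% against 12.3%.

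Genes were read against the background of the annotation. Of 22350 protein-coding genes, 963 (4.31%) had an ESC/D-EPSC region within 1 kb of the start site and 4806 (21.5%) had one within 10 kb of the gene. At 920 of the 963 no L-EPSC peak lay within 1 kb of the start site, and at 43 one did. Of 6464 genes with ESC and D-EPSC H3K27ac peaks within 1 kb of the start site, 16.3% had no L-EPSC peak there. Longer genes have more room for a region within 10 kb, so the wider count is not corrected for length. Neither share is corrected for acetylation: 7979 of the 22350 genes had ESC H3K27ac at the start site. A list rich in acetylated or long genes can therefore exceed both shares, and no list was tested.

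Genes of LIF signalling were met at start sites. Of 16 genes of the LIF receptor and STAT3 pathway, 4 (25%) had an ESC/D-EPSC region within 1 kb of the start site, against 4.31% of all protein-coding genes. They were Lif itself, Jak1, Socs1 (a feedback inhibitor of JAK kinases) and Ptpn11 (the phosphatase SHP2). At Lif, region chr11:4156090-4157465 lay 0.095 kb upstream, with 1189 bp of ESC peak and 357 bp of D-EPSC peak, and the nearest L-EPSC peak was 9.35 kb away. L-EPSC H3K4me1 covered 1334 bp of it and H3K4me1 of both other states 1376 bp, nearly the whole region in every state. At Jak1, region chr4:100937471-100938203 lay over the start site with 553 bp of ESC peak and 247 bp of D-EPSC peak, of which 67 bp were shared, and no L-EPSC peak within 89.4 kb. Its H3K4me1 was 0, 11 and 22 bp in the 3 states, as is usual of a start site itself. At Socs1, region chr16:10785381-10786328 held the D-EPSC peak over its whole 948 bp and the ESC peak over 266 bp, with an L-EPSC peak 48.8 kb away. At Ptpn11, region chr5:121640759-121641754 held 800 bp and 957 bp of peak and a GC content of 69.5%. Of 12 genes in the list with ESC and D-EPSC peaks at the start site, 5 had no L-EPSC peak there, against 16.3% of all such genes. The fifth was Junb, whose region reached an L-EPSC peak farther off. The list was rich in genes with both peaks at the start site, 12 of 16 against 6464 of all 22350, which raises the 25%. Lifr, the receptor, Stat3, and Socs3, another feedback inhibitor, had H3K27ac at the start site in all 3 lists.

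Wnt pathway genes were read as machinery and targets. Of 23 genes of receptors, destruction complex and nuclear factors, 3 had a region at the start site (Ctnnb1, Tcf7l2 and Btrc) and 9 had one within 10 kb. Of 23 targets and feedback genes, 1 (Tnfrsf19) and 4 did. Among all protein-coding genes the shares were 4.31% and 21.5%. The machinery genes were above both shares, and the targets were close to the first and below the second. Of the machinery genes with ESC and D-EPSC peaks at the start site, 2 of 13 had no L-EPSC peak there, and of such targets 1 of 7. Both were close to the 16.3% of all genes with ESC and D-EPSC peaks there. Btrc had 5 regions, and its H3K27ac within 10 kb of the gene was 23.4 kb in the ESC list, 2.55 kb in the D-EPSC list and 0 in the L-EPSC list. The widest, chr19:45426120-45429085, lay 9.14 kb upstream and is the first sequence above. It held 2966 bp of ESC peak and 1258 bp of D-EPSC peak, and its H3K4me1 was 1669, 6 and 0 bp in ESCs, D-EPSCs and L-EPSCs. The other Btrc regions account for the 2.55 kb, so the D-EPSC peak of this region lay beyond 10 kb of the gene. At Ctnnb1, which encodes β-catenin, the region lay 0.749 kb upstream and the D-EPSC peak in it was itself beyond 1 kb. At Tcf7l2, a nuclear partner of β-catenin, the region 0.318 kb upstream had an L-EPSC peak 0.978 kb away. The tankyrase genes Tnks and Tnks2, whose products XAV939 inhibits, kept H3K27ac at the start site in all 3 lists and had 3 regions and 1 region within 10 kb.

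Of 20 genes of Src family kinases and their adhesion partners, 2 (10%) had a region at the start site, and 10 (50%) had one within 10 kb. The shares of all genes were 4.31% and 21.5%. At the start site of Cttn, the actin-binding Src substrate cortactin, the region had 2590 bp of ESC peak and 700 bp of D-EPSC peak, with 83 bp covered by both. Ptk2 (focal adhesion kinase), Bcar1 (a docking protein of focal adhesions) and Itga6 (integrin α6) had 4, 3 and 3 regions. Of 26 genes of the JNK and p38 cascades and AP-1, none had a region at the start site and 4 had one within 10 kb, which was 15.4% against 21.5% of all genes. Of 17 YAP and TEAD genes none had one at the start site and 9 (52.9%) had one within 10 kb. Tead1, a DNA-binding partner of YAP, had 7, and its H3K27ac within 10 kb of the gene was 56.0 kb (ESC), 36.4 kb (D-EPSC) and 19.7 kb (L-EPSC). Of 20 FGF and ERK genes, 1 (5%) had a region at the start site and 9 (45%) had one within 10 kb. At Etv4, an ETS factor and ERK target, the D-EPSC peak (2735 bp) was wider than the ESC peak (1004 bp), and H3K4me1 covered all 2894 bp of the region in both EPSC lists. Of 20 Nodal and TGF-β genes, none had a region at the start site and 5 (25%) had one within 10 kb.

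Most pluripotency genes kept L-EPSC acetylation at the start site. Of 26 core, naive and associated genes, 22 had ESC and D-EPSC peaks there and 20 had an L-EPSC peak, and 2 had an ESC/D-EPSC region, Dppa3 and Lin28a. Of the 22, 2 had no L-EPSC peak there. Among all 6464 genes with ESC and D-EPSC peaks at the start site that share was 16.3%, so most genes of any kind kept it. Within 10 kb of the gene, 12 of the 26 (46.2%) had an ESC/D-EPSC region, against 21.5% of all genes. That background holds many genes without acetylation: 7979 of 22350 had ESC H3K27ac at the start site, against 23 of these 26. Dppa3 had 3 regions and no L-EPSC H3K27ac within 10 kb of the gene, against 4.93 kb in ESCs and 1.75 kb in D-EPSCs. The nearest L-EPSC peak lay 12.3, 6.86 and 3.32 kb from the 3 regions. The region at the Dppa3 start site, chr6:122577145-122578153, was covered by H3K4me1 over all 1009 bp in each state. At Lin28a, chr4:133573028-133574606 held D-EPSC peak over all 1579 bp and ESC peak over 728 bp, and H3K4me1 covered 268 bp in ESCs and 1579 bp in D-EPSCs and L-EPSCs. Klf5, a naive pluripotency factor, had 3 regions outside the gene body. Of 15 formative genes 1 had a region at the start site, Otx2, a factor of the epiblast leaving naive pluripotency, where 966 bp were covered by both peaks and an L-EPSC peak lay 2.37 kb off. Of the same 15 genes, 6 (40%) had a region within 10 kb.

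Lineage genes seldom had both ESC and D-EPSC peaks within 1 kb of the start site. This held for 1 of 19 trophoblast, 1 of 17 primitive streak and mesoderm, 2 of 16 primitive endoderm, 0 of 13 neural, 2 of 18 retinoic acid and 1 of 40 Hox genes. Low start-site counts therefore do not set these lists apart. Of 19 trophoblast genes 2 (10.5%) had an ESC/D-EPSC region at the start site, Plet1 and Bmp4, and 6 (31.6%) had one within 10 kb. The shares of all genes were 4.31% and 21.5%. Bmp4 was also the 1 of 17 primitive streak and mesoderm genes. At Bmp4, which encodes a secreted morphogen, region chr14:47010476-47011179 lay 0.132 kb upstream with 539 bp of ESC peak and 675 bp of D-EPSC peak. No L-EPSC H3K27ac lay within 312 kb of it, yet H3K4me1 covered all 704 bp of it in D-EPSCs and L-EPSCs and 644 bp in ESCs. None of 16 primitive endoderm genes, 13 neural genes and 18 retinoic acid genes had a region at the start site, and 2, 0 and 4 had one within 10 kb. None of 40 Hox genes had one in either window. Of 14 fibroblast genes 1 had one at the start site, Fbln1, and 2 had one within 10 kb.

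Among genes of metabolism and chromatin, 2 of 21 glycolysis genes (9.52%) had a region at the start site, against 4.31% of all genes. They were Tpi1 (triosephosphate isomerase) and Pgk1 (phosphoglycerate kinase, on chromosome X). Within 10 kb, 10 of the 21 (47.6%) had one, against 21.5% of all genes. Slc2a3 had 4 regions, with 54.2 kb (ESC), 34.7 kb (D-EPSC) and 18.3 kb (L-EPSC) of H3K27ac within 10 kb of the gene. Of 26 genes of acetyltransferases, deacetylases, BET readers and Polycomb, none had one at the start site and 13 (50%) had one within 10 kb. Kat6b had 5 and Crebbp 4, and Mtf2, a Polycomb accessory protein, had 3. Of 15 DNA methylation genes, 1 (6.67%) had one at the start site and 9 (60%) within 10 kb, among them Kdm2b, which recruits a Polycomb complex to CpG islands, with 5. Of 82 ribosomal protein genes 1 had a region at the start site, while 77 had H3K27ac there in the L-EPSC list. Zinc finger genes named Zfp had one at the start site in 35 of 371 (9.43%), solute carriers in 15 of 355 and olfactory receptors in 2 of 1113. None of 67 histone genes, 46 keratins and 43 collagens had one. The 7 genes of the receptors and enzymes that dimethindene and minocycline address had none in either window.

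**Figure D5:**
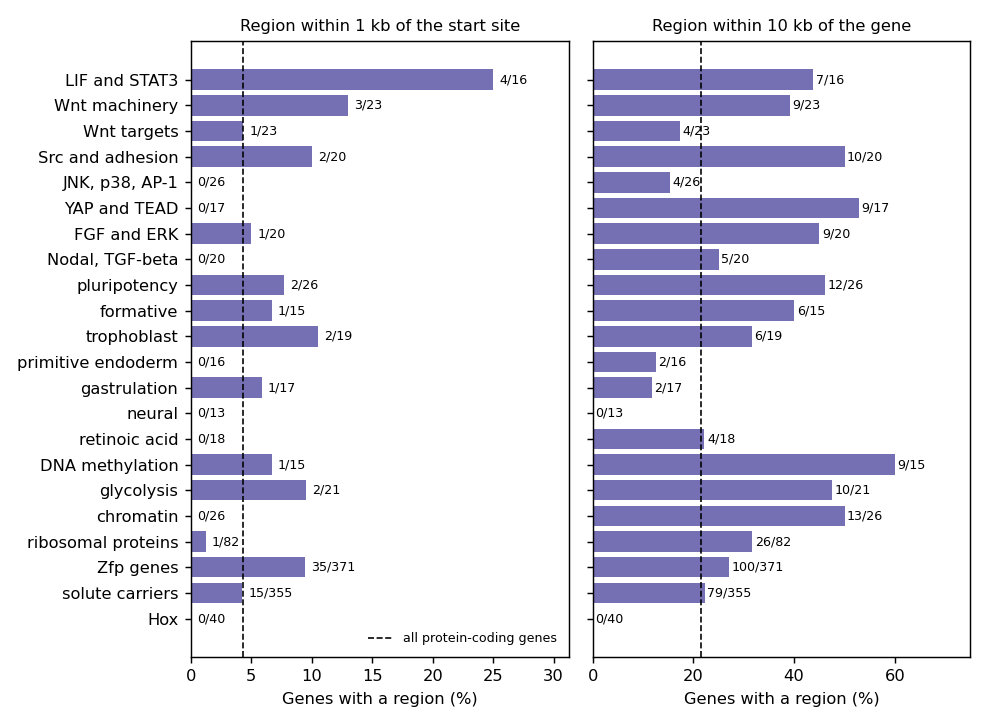
Share (%) of the genes of each list with an ESC/D-EPSC region within 1 kb of the start site (left) or within 10 kb of the gene (right); bars are labelled with genes of genes found, and the dashed line is the share of all protein-coding genes (4.31% and 21.5%). The LIF and STAT3 list stands at 4 of 16 on the left, and the DNA methylation list at 9 of 15 on the right.

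The regions with the most bases covered by both peaks, and no L-EPSC peak within 10 kb, were broad acetylated domains. The first, chr3:88077942-88089401, ran over exons and introns of Rhbg, an ammonium transporter gene, and of 2 unnamed genes. ESC peaks covered 11262 bp of its 11460 bp and D-EPSC peaks 9092 bp, and both covered 8894 bp. The L-EPSC list held no H3K27ac peak within 10.3 kb of it, but its H3K4me1 peaks covered 8444 bp, against 10759 bp in ESCs and 10032 bp in D-EPSCs. The second, chr2:4994856-5003438, lay between genes 9.76 kb upstream of Optn, with 6485 bp covered by both and the nearest L-EPSC peak 45.1 kb away. Another, chr2:4962625-4970410, lay within Optn, so 2 of the first 10 were at this gene. Others lay in Tdrd12 (a piRNA pathway protein), Ggnbp2, Ryr2 (a calcium release channel), Phf21a (a reader of unmethylated H3K4) and Cltb (clathrin light chain B), and between genes near Paqr3 and Mdm4. Across the 10, H3K4me1 covered from 2584 to 8444 bp in L-EPSCs, so none of them lacked it.

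At start sites the broadest after the first were at Liph, a lipase (4300 bp covered by both), Fut9, the fucosyltransferase that makes the stem cell antigen SSEA-1 (3936 bp), 8430410A17Rik (3629 bp) and Scd1, a fatty acid desaturase (3515 bp). Snx11, Tcea3, Tmem106a, Pddc1 and Cdk9, the kinase of the elongation factor P-TEFb, followed with 2354 to 2675 bp. At Scd1, chr19:44481361-44485590 was covered by the ESC peak over its whole 4230 bp and H3K4me1 covered 2473 bp (ESC), 3297 bp (D-EPSC) and 2142 bp (L-EPSC). At Tcea3, an elongation factor gene, H3K4me1 covered all 3812 bp in D-EPSCs and L-EPSCs and 2456 bp in ESCs, and the nearest L-EPSC H3K27ac peak was 62.2 kb away.

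The genes with the most ESC/D-EPSC regions within 10 kb were Etl4 (15), Ppp1r9a (13), Gm20388 (13), Rere (12) and Fgfr2 (12). All are long, and the annotated spans of Gm20388 (4435 kb) and Fgfr2 (3009 kb) cover several other genes. Ppp1r9a, which encodes the neuronal scaffold neurabin, spans 263 kb and held 69.7 kb (ESC), 51.5 kb (D-EPSC) and 8.47 kb (L-EPSC) of H3K27ac, and its H3K4me1 was 98.7, 107 and 74.1 kb. Rere, a nuclear receptor corepressor gene, held 129, 23.4 and 7.81 kb of H3K27ac, and 53 of its 75 union regions were ESC-only. Etl4 held 225, 138 and 89.3 kb, and its H3K4me1 was 227, 202 and 206 kb. The D-EPSC total was thus much nearer to the ESC total at Ppp1r9a and Etl4 than at Rere.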

How the data were processed

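ChIP-seq of H3K4me1 (antibody ab8895) and H3K27ac (ab4729) was done by the authors in 2 samples per mark and state, with 1 input per state. By the study's methods, reads were aligned to mm9 with bowtie2 and broad peaks were called with MACS against input. The submitters' processing notes name FastQC 0.10.1, Trim Galore 0.6.3, cutadapt, Bowtie2 2.3.5, SAMtools 1.10 and HOMER. Thresholds and the pooling of replicates are not given in the sources used here. The deposited files are 6 peak lists with a chromosome, start, end and name per peak, and no count, score or signal, so the tests of read counts that the authors used could not be run, and lists were compared by overlap.

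Union regions joined H3K27ac peaks that overlapped by at least 1 bp or touched, on 20 chromosomes (1 to 19 and X). All peaks lay within the chromosomes of NCBIM37 (mm9). Start sites, exons and introns came from GENCODE M1, which is on that build, with coordinates 1-based. Of 356 listed symbols 354 were found. The members and the gene and motif lists were chosen with earlier results of these data known. Named regions were the 10 with the most bases covered by ESC and D-EPSC peaks and no L-EPSC peak within 10 kb, the 10 such regions at start sites without an L-EPSC peak there, listed genes with a region at the start site or 3 or more within 10 kb, and the 5 genes with most regions. Not every gene that this rule names is reported here. The overlap code was tested on simulated data, with 0 errors in 200 sets of lists. Alternatives were other joining distances, peak widths, list lengths, overlaps, windows and chromosomes. Python 3.11.15, numpy 2.4.6 and pandas 2.3.3 were used.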

Additional observations from a re-analysis of the deposited data

How the results depend on the processing

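No paired analysis was possible because each list holds 1 state and mark without replicate numbers, and leaving out a replicate was not possible for the same reason. Of 133 recomputed values 61 stayed within the 95% binomial interval of the reported value (within 1.5 times for the number of regions) and 72 moved. The order of the classes turned with lists of equal covered bases, where 3.23% of ESC and D-EPSC regions had no L-EPSC peak and 16.3% of ESC and L-EPSC regions had no D-EPSC peak. GC and AP-1 values below are for all ESC/D-EPSC regions, distal and start-site together. As reported, their median GC was 46.3% and AP-1 sites were in 12.6% of them. With peaks joined over gaps of up to 1 kb, the share of ESC and D-EPSC regions without an L-EPSC peak was 30.5%, the median width 1641 bp, the start-site share 14.4%, the share near an L-EPSC peak (within 10 kb) 32.7% and the share of genes with a region within 10 kb 20.1%. With peaks of at least 500 bp these were 34.3%, 1859 bp, 17.5%, 33.6% and 19.1%, and H3K4me1 overlap was 83.9% (ESC), 87.3% (D-EPSC) and 82.7% (L-EPSC). With lists of equal peak number, 2975 regions gave 21.3%, 2184 bp, 10.1%, 44.7% and 11.0%, H3K4me1 of 92.6%, 91.6% and 87.2%, 45.9% GC and AP-1 sites in 11.0%. With lists of equal covered bases (chosen after seeing the data) 92 regions gave 3.23%, 6346 bp, 7.61%, 44.6% and 0.443%, H3K4me1 of 100% in each state, 44.5% GC and AP-1 sites in 6.52%, since only ESC peaks of at least 5131 bp enter. Asking that at least 0.5 of a region be covered by both peaks left 2260 regions, with 23.1%, 1070 bp, 35% near an L-EPSC peak and 8.34% of genes, H3K4me1 of 73.3%, 78.0% and 72.5%, 46.1% GC and AP-1 sites in 14.9%. Without an L-EPSC peak within 1 kb of the region, the shares were 30.2%, 37.9% near an L-EPSC peak and 20.6% of genes, and on chromosomes 1 to 19 22.1% of genes had a region. H3K4me1 over at least 0.5 of the region gave 70.5%, 71.3% and 60.1%, and an H3K4me1 peak within 1 kb gave 88.1%, 88.2% and 83.4%. Start-site windows of 500 bp and 2500 bp gave 11.5% and 16.2%, a window of 600 bases gave AP-1 sites in 22.1%, and the gene span alone or 50 kb either side gave 14.0% and 40.6% of genes. L-EPSC H3K4me1 overlap was the lowest of the 3 states in every alternative except that of equal covered bases. Where values moved, the cause was not tested unless named. Depth, peak thresholds and replicate spread are unknown from these lists, so the number of regions and the share without an L-EPSC peak describe the lists and carry no error for the cells.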
